A study of Saccharomyces cerevisiae with 6 samples.

Results

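Genes of phospholipid and storage lipid metabolism of the budding yeast Saccharomyces cerevisiae were compared between cells of a film floating at the surface of the medium and cells that had settled beneath it. A list of 34 genes was taken by name, and each was read from the brightest probe set that the platform table pairs with that gene alone. All 34 had such a probe set, of 5656 genes that did. The strain, 3238-32, is labelled MATa and carries leu2∆1, lys2-801 and ura3-52 in both groups. It forms a floating film once glucose is used up. Cells were precultured for 24 h at 30°C in YEPD, washed, diluted 10-fold into 100 ml of YNB with 4% ethanol, leucine, histidine and uracil, and left to stand for 48 h at 27°C in 250 ml beakers. The 3 biofilm arrays (floaters in the labels) hold RNA of the film, and the 3 bottom layer arrays (sinkers, also called planktonic) hold RNA of the cells beneath it. Beakers were triplicate, but the labels tie no array to a beaker, so p-values here reflect how far these samples differ among themselves, which may be technical.

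Phosphatidate stands at the branch point of yeast lipid synthesis. It is turned either into CDP-diacylglycerol, from which phosphatidylinositol, phosphatidylserine and, by decarboxylation and methylation, phosphatidylethanolamine and phosphatidylcholine are made, or into diacylglycerol, from which storage triacylglycerol is made. Choline and ethanolamine taken up or set free can also be joined to diacylglycerol, which is called the Kennedy route. Many of these genes are activated by the Ino2-Ino4 pair of transcription factors and repressed by Opi1, which phosphatidate holds at the endoplasmic reticulum, so that added inositol lowers their transcripts. Cells entering stationary phase are known to store triacylglycerol in lipid droplets, and growing cells draw on it for membranes.

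Arrays of one group were alike over the 4242 genes bright enough to be tested, with correlations of at least 0.960 within a group and at most 0.804 between groups, given as a description of log2 signals that share probe brightness. Signals are linear array intensities scaled by the authors to a common trimmed mean, as the values themselves show, and the median signal of the 6 arrays lay between 128 and 151. The brightest of 19 control probe sets for genes that yeast lacks read between 16.3 and 21.9 on 5 arrays and 44.8 on the array of bottom replicate 3. The ratio of the 3′ to the 5′ control probe set of ACT1, a sign of RNA length, was 1.54, 2.04 and 1.56 in biofilm cells and 2.36, 1.80 and 3.84 in the bottom layer (exact two-sided permutation p = 0.2, where 0.1 is the smallest that 3 against 3 allows). Its part in the results below was not tested beyond a fit with the ratio as a covariate.

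The mating type markers went against the label on all 6 arrays. Of the 6 a-specific genes, each was among the dimmest 25% of genes. STE2, the receptor for alpha-factor, lay below the brightest control on every array, at 2.33 ± 1.52 and 6.34 ± 3.22 (biofilm, then bottom layer, mean ± SD, n = 3 each). The 4 alpha-specific genes were all bright enough to be tested. STE3, the receptor for a-factor, read 1907 ± 266 and 1121 ± 56.7, and MF(ALPHA)1, the alpha-factor precursor, 3271 ± 281 and 1509 ± 438. SAG1, the alpha-agglutinin gene, was at 376 ± 83.9 and 1704 ± 433, and MF(ALPHA)2, the minor alpha-factor precursor, was of middling signal, at 152 ± 7.08 and 263 ± 52.3. LEU2 was bright on the brightest of its 3 probe sets, at 5372 ± 379.8 and 9133 ± 2435. LYS2 read 1084 ± 289 and 496 ± 159, while URA3 was dim, at 30.3 ± 3.46 and 16.3 ± 1.02. Where the probes lie relative to the alleles is not given in the sources used here. Among the a-specific genes MFA1, an a-factor precursor gene, differed most between the groups, at 13.0 ± 5.72 and 116 ± 7.54.

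The lipid genes split between both directions, with the largest falls in the biofilm at the entry to and the branch point of phosphatidate metabolism and the largest rises among genes of inositol uptake, triacylglycerol making, phosphatidylcholine making and choline use. Of the 31 genes tested, 9 were higher in the biofilm, 6 were lower and 16 did not pass at an adjusted p below 0.05 in the limma fit. The called share of 48.4% compares with 62.5% of all 4242 genes. The 9 higher genes are 29.0% of those tested, beside 38.0% over all genes, and the 6 lower are 19.4%, beside 24.4%. Calls of 2-fold or more numbered 9, 29.0%, where all genes give 32.4%; 6 were higher and 3 lower, beside 19.4% and 13.0% over all genes. The groups did not overlap for 18, 58.1%, where all genes give 68.0%; 11 lay higher and 7 lower, beside 41.3% and 26.7%. Each of these shares was below that of genes at large, apart from the calls of 2-fold or more in the higher direction, at 19.4% in both. Their median log2 fold change was 0.11, beside 0.17 over all genes, and the median size of a change, whatever its sign, was 0.51 beside 0.68. In RNA of whole cell populations, fewer cells of a type and less RNA per cell cannot be told apart.

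The counts depend on how the arrays are centred. When each array was centred on the median of the genes tested, an alternative chosen after seeing the data, all log2 fold changes moved down by about 0.20. Then 8 of the 31 were higher and 10 lower, beside 1310 higher and 1334 lower of the 4242 genes. Over all genes those higher went from 60.9% to 49.5% of the calls. The 6 genes called lower without centring kept that call, and SCT1, DGA1, TGL4 and PLB3 were added to them. PCT1 lost its call as higher.

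**Figure D1:**
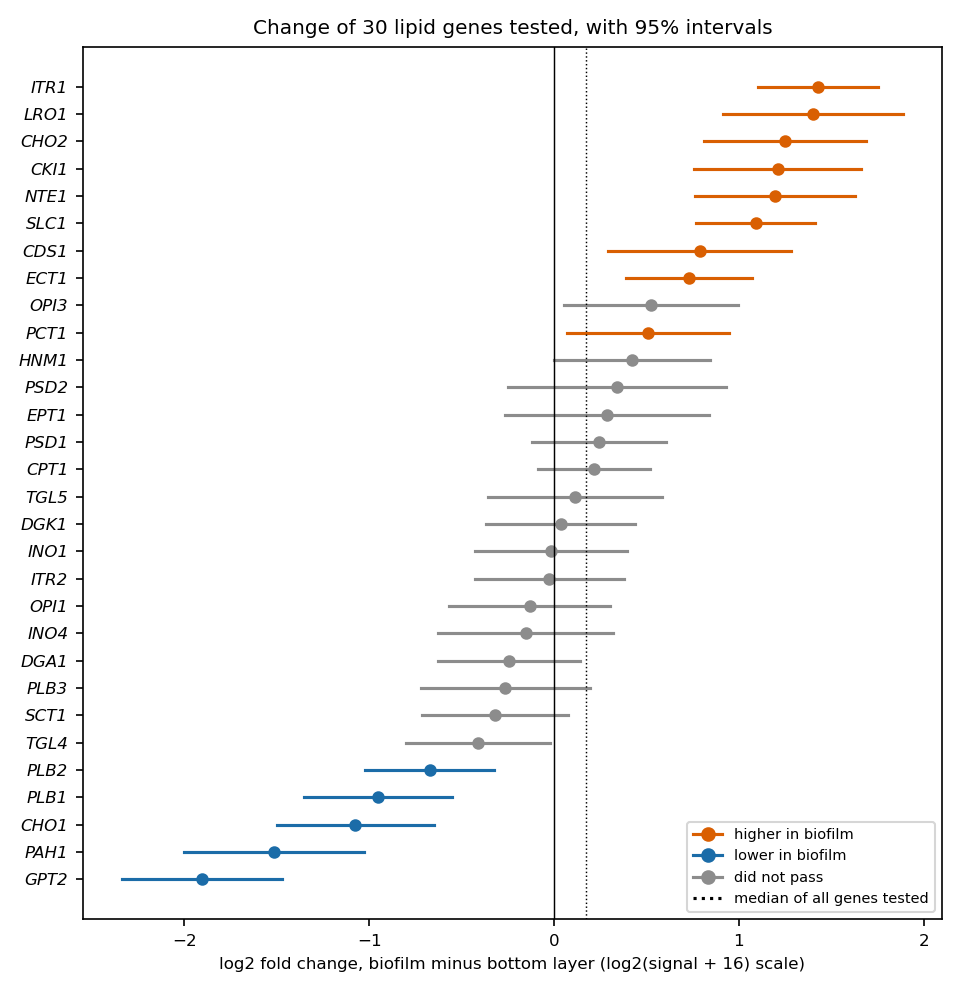
Log2 fold change of 30 of the 31 lipid genes tested, biofilm minus bottom layer on the log2(signal + 16) scale, with 95% intervals from the limma fit (n = 3 arrays per group). In this fit the genes run from ITR1, at 1.43, to GPT2, at -1.90; coloured genes passed the threshold, grey ones did not, and the dotted line marks the median of all genes tested, 0.17.

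Set among all genes tested, the changes of these lipid genes were moderate. Genes with a change larger than that of GPT2, whatever the sign, made up 7.36% of those tested, and 14.7% changed by more than PAH1. For ITR1 and LRO1 these shares were 16.7% and 17.4%. At the other end, 98.3% of genes changed by more than INO1.

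**Figure D2:**
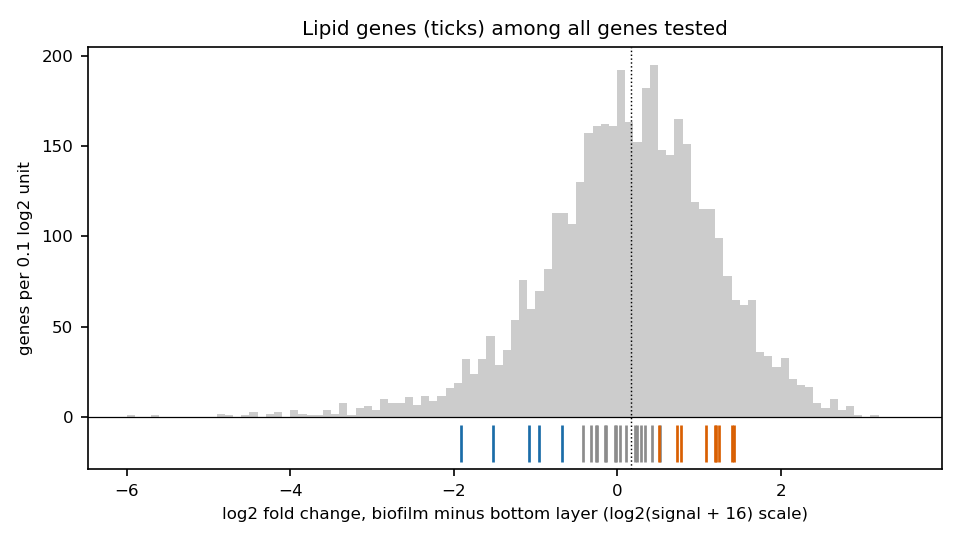
Number of genes per 0.1 log2 unit of fold change, biofilm minus bottom layer, over all 4242 genes tested (grey), with a tick below the axis for each of 30 lipid genes (orange higher, blue lower, grey not past the threshold; dotted line, median of all genes). The ticks lie between -1.90 and 1.43, and the grey bars reach beyond them on both sides.

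Among the genes for making and taking up inositol, the transporter gene ITR1 rose, and INO1 and ITR2 did not pass. INO1 (YJL153C), which makes inositol phosphate from glucose phosphate and is the textbook readout of inositol control, read 1562, 1068 and 1688 on the biofilm arrays and 1286, 1489 and 1522 on those of the bottom layer. The groups overlap, and biofilm replicate 2 was the lowest of the 6. The log2 fold change of INO1 was -0.016 with a 95% interval of -0.43 to 0.40 (adjusted p = 0.946), and its sign changed without biofilm replicate 2 (0.18), without bottom replicate 2 (0.013) or 3 (0.029) and with array weights (0.054). ITR1 (YDR497C), the main inositol transporter, read 2093, 2060.0 and 1801 on the biofilm arrays and 803, 649 and 735 on those of the bottom layer. All biofilm arrays lay above all bottom layer arrays, and ITR1 was 2.69-fold higher (log2 fold change 1.43, SE 0.15, adjusted p = 1.63e-05). This was the largest rise among the 31 in this fit, but LRO1 exceeded it with a pseudocount of 1, quantile normalization, array weights and without bottom replicate 2. ITR2 (YOL103W), the minor transporter, lay between 206 and 289 in biofilm cells and between 227 and 250.3 in the bottom layer and did not pass, with an interval of -0.43 to 0.38.

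The regulators of the inositol response showed no change that passed in the limma fit, and neither of the 2 tested had an unadjusted p under 0.05. INO4 (YOL108C), one part of the activator, was at 172 ± 49.5 in biofilm cells and 189 ± 21.9 in the bottom layer, with a log2 fold change of -0.15 and an interval of -0.63 to 0.32. The repressor gene OPI1 (YHL020C) was at 306 ± 13.4 and 343 ± 81.0, with a log2 fold change of -0.13 and an interval of -0.57 to 0.30. The signs of both are unsettled: without biofilm replicate 2 INO4 stood at 0.022, and OPI1 stood at 0.0088 without bottom replicate 3 and at 0.14 with array weights. INO2 (YDR123C), the other part of the activator, was too dim to test, at 36.4, 8.08 and 17.2 on the biofilm arrays and 22.2, 66.3 and 21.8 on those of the bottom layer. It lay below the brightest control on 2 biofilm arrays and 1 bottom layer array.

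**Figure D3:**
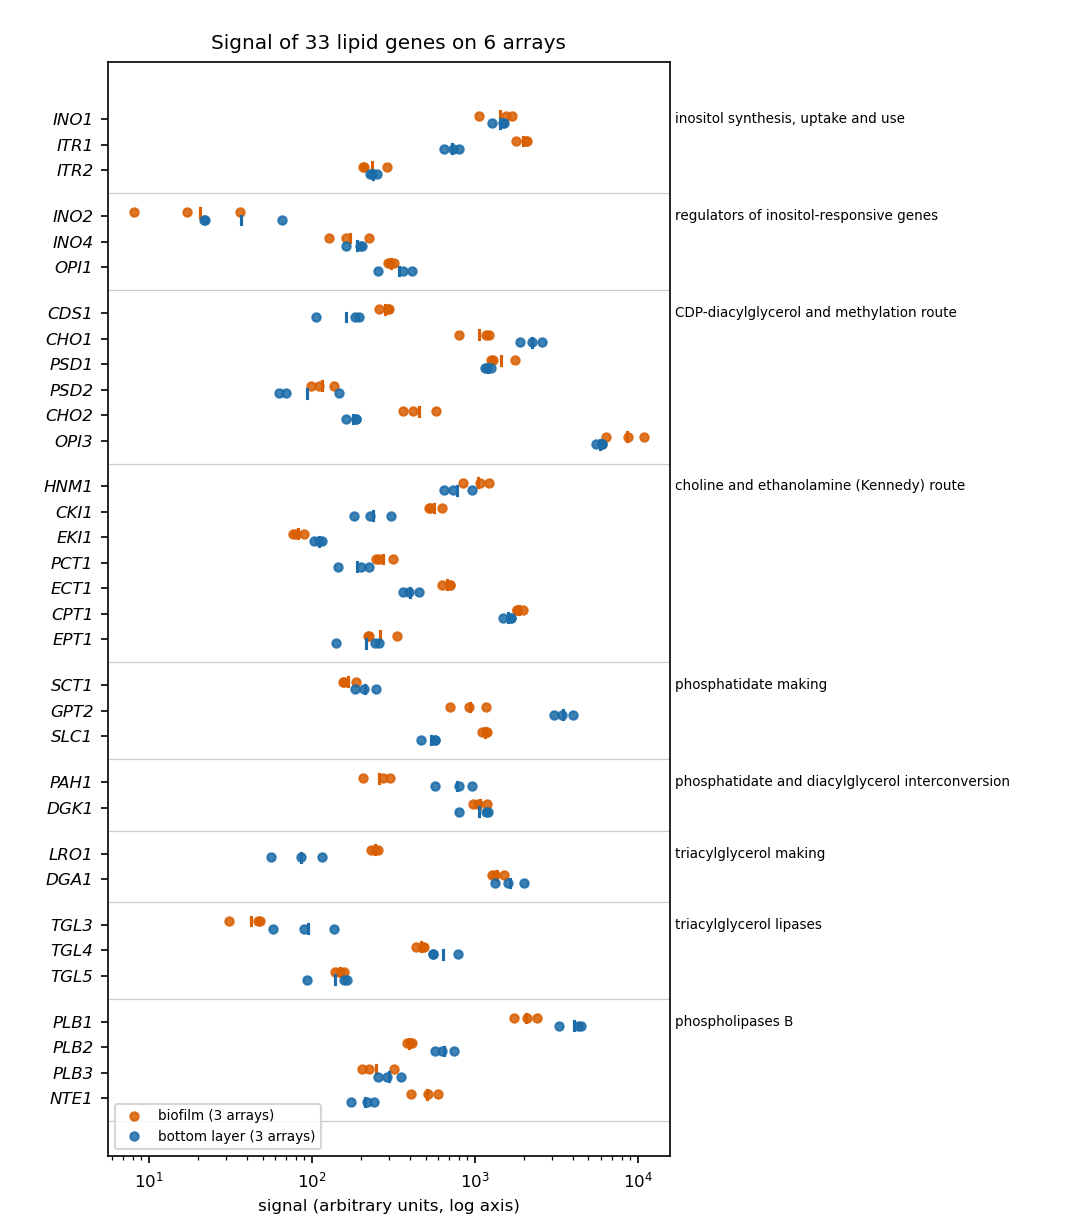
Signal of each of 33 lipid genes (rows, grouped by role) on a log axis, with a point for each of 3 biofilm (orange) and 3 bottom layer (blue) arrays and a bar at each group's mean. GPT2, PAH1 and CHO1 have their bottom layer points to the right of all biofilm points, and ITR1, LRO1 and CHO2 the reverse.

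Along the route from CDP-diacylglycerol to phosphatidylcholine, the phosphatidylserine step was lower in the biofilm and the steps before it and at the first methylation were higher. CDS1 (YBR029C), which makes CDP-diacylglycerol from phosphatidate, read 292, 299 and 259 on the biofilm arrays and 185, 195 and 106 on those of the bottom layer. It was 1.73-fold higher without overlap (log2 fold change 0.79, SE 0.22, adjusted p = 0.0104), but the call was lost with the ACT1 ratio as a covariate (log2 fold change 0.43, adjusted p = 0.126). CHO1 (YER026C), the phosphatidylserine synthase, read 1222, 1170.1 and 808 on the biofilm arrays and 2598, 2240.4 and 1899 on those of the bottom layer. Every biofilm array lay below every bottom layer array, and the fall was 2.11-fold (log2 fold change -1.07, SE 0.19, adjusted p = 0.000639).

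The decarboxylases that turn phosphatidylserine into phosphatidylethanolamine did not pass. PSD1 (YNL169C), the mitochondrial enzyme, was at 1448 ± 289 in biofilm cells and 1205 ± 48.7 in the bottom layer (interval -0.12 to 0.61). PSD2 (YGR170W), the enzyme of Golgi and endosomes, read 138, 99.2 and 111 on the biofilm arrays and 63.4, 69.9 and 147 on those of the bottom layer. Bottom replicate 3 stood apart as the highest of the 6. With array weights (adjusted p = 0.0115) or without that array PSD2 was called higher (log2 fold change 0.67 in place of 0.34, adjusted p = 0.0143).

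CHO2 (YGR157W), which adds the first methyl group to phosphatidylethanolamine, was higher in the biofilm. It read 579.9, 365 and 421 on the biofilm arrays and 162, 187 and 188 on those of the bottom layer, and all biofilm arrays lay above the bottom layer. The rise was 2.38-fold (log2 fold change 1.25, SE 0.20, adjusted p = 0.000284). OPI3 (YJR073C), which adds the later methyl groups, read 8679.6, 6374 and 10964 on the biofilm arrays and 6035, 5539.9 and 6077 on those of the bottom layer. Its groups did not overlap either, but with a log2 fold change of 0.52 it fell just short of the threshold (adjusted p = 0.0520). Among the alternatives, quantile normalization (adjusted p = 0.00854), no variance trend (adjusted p = 0.0440), array weights (adjusted p = 0.0324) and leaving out biofilm replicate 2 (adjusted p = 0.0171) put OPI3 past it.

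In the Kennedy route all 6 genes tested had a log2 fold change above 0, where the median over all genes was 0.17. Of them 3 were called higher in the biofilm, 50% beside 38.0% over all genes. None was called lower, so the share called either way was also 50%, beside 62.5%. CKI1 (YLR133W), the choline kinase, read 536, 522 and 635 on the biofilm arrays and 229, 308 and 181 on those of the bottom layer. The groups were well apart, and CKI1 was 2.31-fold higher (log2 fold change 1.21, SE 0.20, adjusted p = 0.000437). ECT1 (YGR007W), which activates phosphoethanolamine, read 704, 628 and 705 on the biofilm arrays and 454, 394 and 364 on those of the bottom layer. It was 1.66-fold higher without overlap (log2 fold change 0.73, SE 0.15, adjusted p = 0.00192). PCT1 (YGR202C), its counterpart for phosphocholine, read 249, 314 and 261 on the biofilm arrays and 224, 146 and 200.1 on those of the bottom layer. Its rise of 1.42-fold passed narrowly (log2 fold change 0.51, SE 0.20, adjusted p = 0.0434), and the call was lost in 9 of the 16 alternatives in which PCT1 was tested, with adjusted p up to 0.230. Those include the replicate block (adjusted p = 0.0627) and leaving out any 1 biofilm array or bottom replicate 2.

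HNM1 (YGL077C), the choline transporter, was at 1051 ± 184 in biofilm cells and 784 ± 166 in the bottom layer with overlapping groups, and did not pass (log2 fold change 0.42, adjusted p = 0.0771). It passed with the replicate block (adjusted p = 0.0322) and without biofilm replicate 3 or bottom replicate 1. The last step is made by CPT1 (YNL130C), for choline, and EPT1 (YHR123W), for ethanolamine. CPT1 was at 1875 ± 102 and 1613 ± 98.6, without overlap but with a log2 fold change of only 0.22 (adjusted p = 0.192). EPT1 was at 261 ± 64.3 and 214 ± 64.1 with overlap, and its sign changed with the ACT1 ratio as a covariate (-0.16). EKI1 (YDR147W), the ethanolamine kinase, was the member just outside the filter on dim genes, with a mean over 6 arrays of 96.5 against a limit of 97.5, while PSD2 was the member just inside it, at 105. EKI1 read 77.1, 90.2 and 80.3 on the biofilm arrays and 103, 111 and 117 on those of the bottom layer. Unlike the 6 genes tested, it thus lay lower on every biofilm array.

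The acyltransferases that make phosphatidate went both ways. GPT2 (YKR067W), which adds the first acyl chain to glycerol phosphate, read 1177, 928 and 706 on the biofilm arrays and 3425, 3991 and 3082 on those of the bottom layer. The lowest bottom layer array was above the highest biofilm array by a wide margin, and the fall of 3.74-fold was the largest change among the 31 (log2 fold change -1.90, SE 0.20, adjusted p = 1.63e-05). SCT1 (YBL011W), which carries out the same reaction, was at 167 ± 16.8 in biofilm cells and 214 ± 32.5 in the bottom layer, overlapped and did not pass (interval -0.72 to 0.073). SLC1 (YDL052C), which adds the second chain, read 1112, 1171 and 1186 on the biofilm arrays and 573, 569 and 468 on those of the bottom layer. It was 2.13-fold higher in the biofilm, with little spread among biofilm arrays (log2 fold change 1.09, SE 0.15, adjusted p = 9.30e-05).

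At the branch point, the gene of the enzyme leading towards storage fat was lower in the biofilm. PAH1 (YMR165C) encodes the phosphatidate phosphatase that makes diacylglycerol. Its signals were 275, 205 and 301 on the biofilm arrays and 804, 574 and 969 on those of the bottom layer. The groups lay apart, and the fall was 2.86-fold (log2 fold change -1.51, SE 0.22, adjusted p = 0.000159). DGK1 (YOR311C), a diacylglycerol kinase that runs the step backwards, was at 1073 ± 107 and 1061 ± 226 and did not pass. Its log2 fold change was 0.036 with an interval of -0.37 to 0.44, and the sign changed under 6 of 17 alternatives.

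Of the enzymes that make triacylglycerol from diacylglycerol, the gene LRO1 was higher in the biofilm and DGA1 did not pass; the difference between them was not tested. LRO1 (YNR008W), which takes the third acyl chain from a phospholipid, read 256, 246 and 233 on the biofilm arrays and 56.3, 115 and 85.6 on those of the bottom layer. The rise was 2.64-fold with no overlap (log2 fold change 1.40, SE 0.22, adjusted p = 0.000272). DGA1 (YOR245C), which takes it from acyl-CoA, was at 1374 ± 124 in biofilm cells and 1647 ± 344 in the bottom layer. Its groups overlapped and it did not pass (interval -0.63 to 0.14), though it was called lower with array weights (adjusted p = 0.0127).

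Neither of the 2 triacylglycerol lipase genes tested passed in the limma fit, and 1, TGL4, had an unadjusted p under 0.05. TGL3 (YMR313C), the major lipase of lipid droplets, was below the filter on dim genes. It read 48.4, 47.1 and 31.3 on the biofilm arrays and 90.4, 137 and 57.6 on those of the bottom layer, lower on all biofilm arrays, the lowest of them beside a brightest control of 21.9 on the same array. TGL4 (YKR089C) read 476, 438 and 491 on the biofilm arrays and 556, 559 and 794 on those of the bottom layer. All biofilm arrays of TGL4 lay below the bottom layer, at a log2 fold change of -0.41 (SE 0.18) and adjusted p = 0.0626, and without bottom replicate 2 it passed (adjusted p = 0.0451). TGL5 (YOR081C) was at 149 ± 9.69 and 139.6 ± 39.4, with overlap. The low bottom layer array of TGL5 was replicate 1, and without it the log2 fold change went from 0.11 to -0.12; TGL5 was called higher with array weights (adjusted p = 0.0404).

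Of the phospholipases B, which strip both acyl chains from phospholipids, PLB1 and PLB2 were lower in the biofilm and NTE1 was higher. PLB1 (YMR008C), a cell surface and secreted enzyme, read 2402, 2099 and 1746 on the biofilm arrays and 4324, 4508 and 3312 on those of the bottom layer. It fell 1.94-fold without overlap (log2 fold change -0.95, SE 0.18, adjusted p = 0.000962). PLB2 (YMR006C), a related enzyme, read 401, 411 and 383 on the biofilm arrays and 633, 568 and 744 on those of the bottom layer and fell 1.59-fold (log2 fold change -0.67, SE 0.16, adjusted p = 0.00358). Both genes thus had every biofilm array below every bottom layer array. PLB3 (YOL011W), which acts on phosphatidylinositol, was at 249 ± 61.0 and 299.5 ± 49.1, overlapped and did not pass (interval -0.72 to 0.19). NTE1 (YML059C), an enzyme of the endoplasmic reticulum that deacylates phosphatidylcholine inside the cell, read 597, 520.3 and 407 on the biofilm arrays and 219, 241 and 176 on those of the bottom layer. Its rise was 2.29-fold with no overlap (log2 fold change 1.20, SE 0.20, adjusted p = 0.000358).

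Differences of log2(signal + 16) within an array, here called log2 ratios and little affected by scaling, were taken for 14 pairs of these genes that share, oppose or follow each other's step. The pairs were chosen after the values were seen, so the ratios are a description with no test, and a ratio shows unequal change and not which gene changed. In 8 of the 14 pairs the biofilm ratios did not overlap the bottom layer ratios. No such share was taken over other gene pairs, and among single genes tested 68.0% did not overlap. The log2 ratio of PLB1 to NTE1 was 1.98, 1.98 and 2.06 in biofilm cells and 4.20, 4.14 and 4.12 in the bottom layer, a shift of -2.15 with a spread among arrays far below it. For CHO1 to CHO2 the shift was -2.33. The pairs of alternative enzymes ITR1 to ITR2, SCT1 to GPT2 and LRO1 to DGA1 shifted by 1.45, 1.58 and 1.64, each without overlap. PAH1 to DGK1 shifted by -1.55, CHO2 to OPI3 by 0.73 and PLB1 to PLB3 by -0.69. The other 6 pairs overlapped, among them PSD1 to PSD2, with a shift of -0.097, and CPT1 to EPT1, with -0.071.

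**Figure D4:**
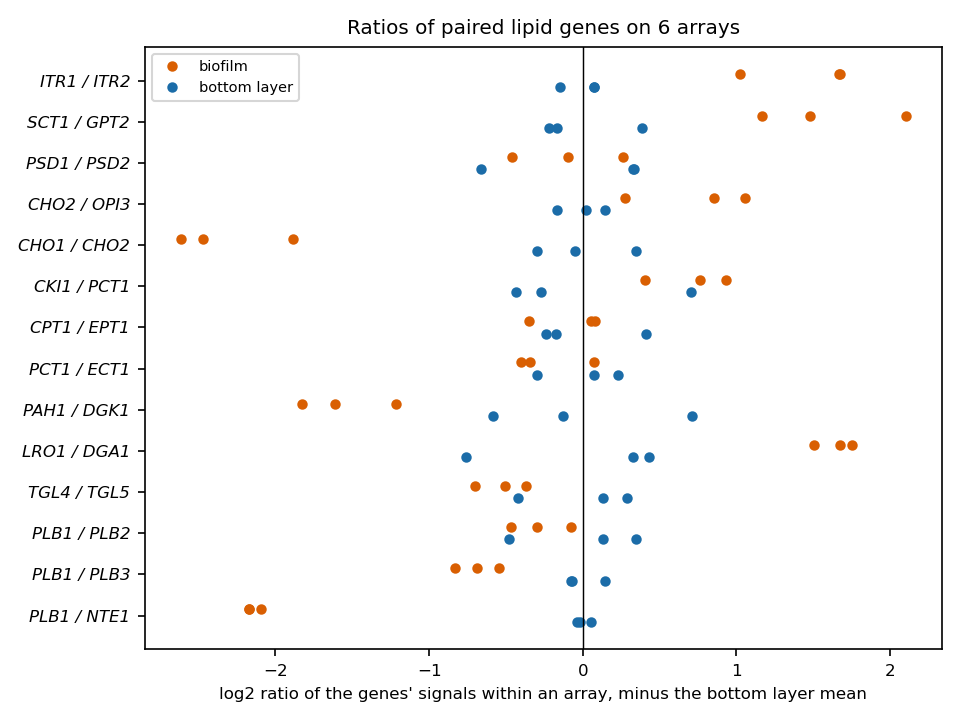
Log2 ratio, as the difference of log2(signal + 16), of 14 pairs of lipid genes within each array, less the pair's bottom layer mean, with a point for each of 3 biofilm (orange) and 3 bottom layer (blue) arrays. The points of PLB1 to NTE1 and CHO1 to CHO2 are furthest apart, with shifts of -2.15 and -2.33, and those of PSD1 to PSD2 and CPT1 to EPT1 lie over each other.

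Another 61 genes of lipid metabolism, in 8 lists, place these values in the wider pathway. Of them 53 were bright enough to test, and 23 were higher in the biofilm, 11 lower and 19 did not pass. The called share was 64.2% beside 62.5% over all genes, with 43.4% higher and 20.8% lower beside 38.0% and 24.4%. Their median log2 fold change was 0.27. Up to 4 genes of each list are described by the smallest p, and the other called genes, given last in a list, were picked out after their values were seen.

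Among the other genes of phosphatidate and acylation, all 8 tested had a log2 fold change above 0 and 6 were called higher, 75.0% beside 38.0% over all genes. The other 2 of the list were too dim to be tested, and both lay lower on every biofilm array: GPD2, a glycerol phosphate dehydrogenase gene, at 34.9 ± 9.10 against 115 ± 21.0, and NEM1, the catalytic partner of Spo7, at 63.6 ± 14.3 against 100.1 ± 24.2. LOA1, a lipid droplet acyltransferase, rose from 302 ± 37.6 in the bottom layer to 642 ± 49.2, and SPO7, a subunit of the phosphatase that activates Pah1, from 88.4 ± 12.4 to 196 ± 12.8, whereas PAH1 itself fell. DPP1, which removes phosphate from diacylglycerol pyrophosphate and phosphatidate, had a log2 fold change of 0.71 and AYR1, which reduces acyl dihydroxyacetone phosphate, one of 0.57. The other genes called higher were LPP1 at 0.65 and GPD1 at 0.39. AYR1 did not pass with arrays centred on the genes tested (adjusted p = 0.0600).

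Lipid droplet genes went both ways, with the 3 largest changes downwards. Of 10 tested, 5 were lower and 3 higher, where over all genes 24.4% were lower and 38.0% higher. ARE2 and ARE1, which esterify sterols for storage, read 46.7 ± 7.48 in the biofilm against 445 ± 212 and 608 ± 34.1 against 1881 ± 159. Their log2 fold changes were -2.77 and -1.60, and the ARE2 signals in the biofilm were dim. PLN1, a perilipin that coats lipid droplets, read 5243, 4764 and 4971 in biofilm cells and 11674, 11446 and 14652 in the bottom layer (log2 fold change -1.32, SE 0.18, adjusted p = 9.98e-05). ROG1, a lipase gene, was higher, with a log2 fold change of 0.92. The other genes called were TGL1 at -0.59 and LDB16 at -0.42, lower, and YJU3 at 0.43 and SEI1 at 0.96, higher.

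Of 12 phosphoinositide kinase and phosphatase genes 4 were called higher and 1 lower, 33.3% and 8.33% beside 38.0% and 24.4% over all genes. The median of their log2 fold changes was -0.16. INP52, an inositol polyphosphate phosphatase, rose from 52.4 ± 9.05 to 217 ± 15.4 (log2 fold change 1.77), and STT4, which makes phosphatidylinositol phosphate at the plasma membrane, from 284 ± 39.4 to 809 ± 81.4 (1.46). SAC1 and INP54, phosphoinositide phosphatases, followed at 0.91 and 0.82. The gene called lower was LSB6 at -0.49. Of 5 transfer protein genes of the Sec14 family tested, 3 were called higher, 1 lower and 1 did not pass. The called shares were 60% higher and 20% lower, beside 38.0% and 24.4% over all genes. The higher ones were SFH5 at 1.69, CSR1 at 0.82 and PDR16 at 0.82. The lower one was YKL091C, a homologue of SEC14 that also goes by the name SFH1, which fell from 1930.0 ± 165 to 737 ± 59.4 (log2 fold change -1.37, SE 0.14, adjusted p = 1.84e-05).

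The remaining lists were mixed. Of 8 cardiolipin and mitochondrial transfer genes 3 were higher and 3 lower, 37.5% each way beside 38.0% higher and 24.4% lower over all genes. GEP4 and PGS1, which make phosphatidylglycerol on the way to cardiolipin, stood at 1.31 and 0.99, and UPS2, which carries phosphatidylserine between mitochondrial membranes, at 0.63. The call of UPS2 was lost with the ACT1 covariate (0.44, adjusted p = 0.0558). UPS1, which carries phosphatidate for cardiolipin synthesis, fell from 722 ± 206 to 283 ± 81.0 (-1.30). The other genes called lower were CRD1 at -0.66 and TAZ1 at -0.59. Of 4 genes for inositol phosphatases and the anchoring of Opi1, INM1, which frees inositol from inositol phosphate, rose from 61.7 ± 9.62 to 197 ± 36.4 (1.45). INM2 at 0.0049, SCS2 at 0.11 and SCS22 at 0.069 did not pass, and the sign of each changed under some alternatives. Of 3 genes that handle deacylated phospholipids and phosphatidylglycerol, PGC1 was lower (-0.84), while GDE1 (0.22) and GPC1 (0.27) did not pass, although GPC1 was called higher with array weights (adjusted p = 0.0433). The transporter gene GIT1 lay below the brightest control on all 6 arrays.

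The inositol-responsive fatty acid genes ACC1, FAS1 and FAS2 were each called higher from their brightest probe set, at 0.53, 1.04 and 0.73. Most other probe sets of FAS1 and FAS2 had log2 fold changes of the opposite sign, some of them at signals near or below the brightest controls. FAS1 has 7 dimmer probe sets, whose log2 fold changes were all below 0 and of which 6 passed in the fit of all probe sets. FAS2 also has 7, with 6 below 0, of which 2 passed, and 1 above 0, which did not. The call of ACC1 was lost without any 1 array other than bottom replicate 3 (adjusted p = 0.0623 to 0.0943), with centring on all probe sets (adjusted p = 0.0706) and with centring on the genes tested (adjusted p = 0.256).

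**Figure D5:**
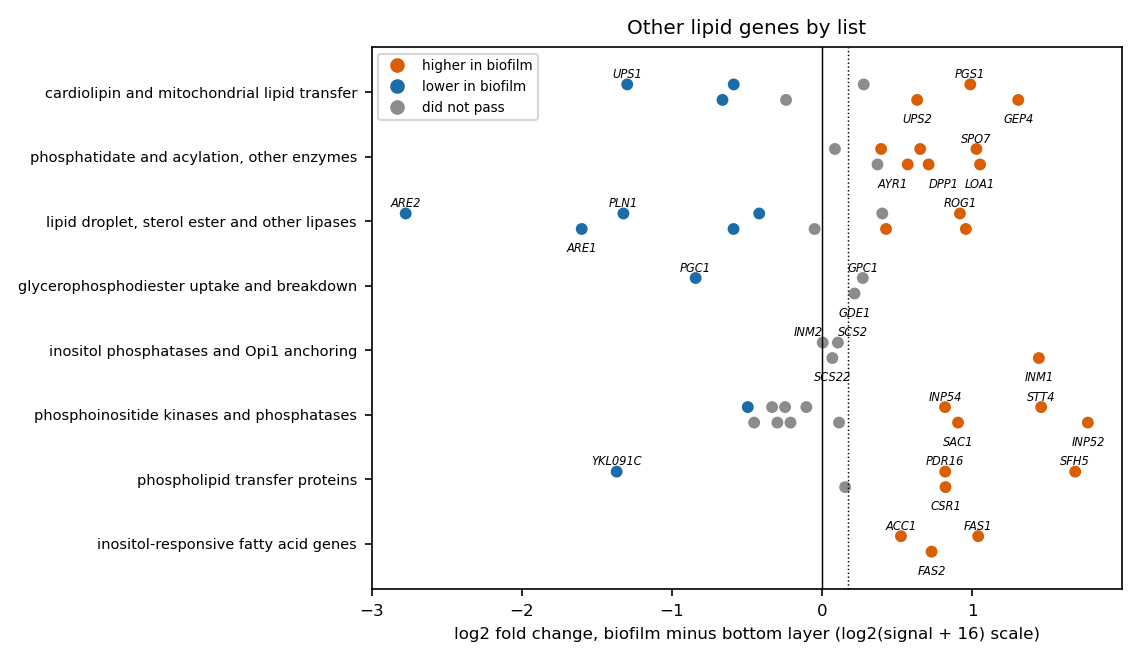
Log2 fold change of the 53 other lipid genes tested (points), biofilm minus bottom layer, by list, coloured as higher, lower or not past the threshold, with up to 4 genes of smallest p in each list labelled (dotted line, median of all genes, 0.17). ARE2, at -2.77, is the furthest point to the left and INP52, at 1.77, the furthest to the right.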

How the data were processed

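Biotin-labelled amplified RNA from 3 samples of each kind was read on Affymetrix yeast arrays, per the labels' protocols. The deposited intensities are linear signals, 1 per probe set and array; the submitters' processing notes name MAS5. Trimmed means were equal on all 6 arrays, so that scaling can shift all genes of an array together.

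Of 9335 probe sets, 6504 paired with 1 gene, 328 with several, 60 were controls and 2443 were not listed in the platform table, and only the first kind was used. Symbols were updated by gene identifier through a RefSeq table of the assembly R64, and PET10 appears there as PLN1. All 34 genes and the 61 others matched; the SEC14 homologue SFH1 was matched as YKL091C, since another gene holds that symbol. The brightest probe set per gene was kept, and 1414 of 5656 genes, the dimmest 25%, were left out, among them INO2, EKI1 and TGL3. The test was limma 3.58.1 under R 4.3.3 on log2(signal + 16) (eBayes with trend, two-sided, Benjamini-Hochberg over 4242 genes, threshold 0.05). Fold changes are on that scale, which understates dim genes. The fit was tested on simulated data.

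All 34 genes were to be named, but the values of 1 are not reported here although the counts include it, and up to 4 tested genes of each other list by smallest p. The genes and lists were chosen with earlier results of these data known. Alternatives were other pseudocounts (1 and 64), no filter or the dimmest 50% left out, array weights, quantile normalization, the ACT1 ratio as a covariate, median centring, a replicate block, no variance trend, other probe sets and leaving out each array. With 3 arrays a group, a typical log2 fold change had a standard error of 0.18, the median over genes. Matplotlib 3.10.9 (Python 3.11.15) drew the figures.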

Additional observations from a re-analysis of the deposited data

How the results depend on the processing

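Of the 15 calls among the 34 genes, 13 kept their direction and their side of the threshold under every alternative in which the gene was tested; PCT1 and CDS1 did not. Over the alternatives the number called higher ran from 6 (dimmest 50% left out, where only 22 were tested) to 11 (array weights) and the number called lower from 6 to 7, apart from 10 with arrays centred on the genes tested. Leaving out single arrays gave 8 to 10 higher and 6 to 7 lower, beside 1450 to 1592 and 926 to 1080 of 4242 genes. The median log2 fold change of the lipid genes was then 0.030 to 0.21, and with the ACT1 covariate it was -0.0071. The log2 fold changes whose sign changed were all of genes that had not passed, other probe sets apart. With quantile normalization the sign changed for DGK1 at -0.0023, INM2 at -0.082 and SCS22 at -0.013. With centring on all probe sets the sign changed for INM2 at -0.0011. With array weights the sign changed for INO1 at 0.054, OPI1 at 0.14 and DGK1 at -0.11. With centring on the genes tested the sign changed for DGK1 at -0.16, TGL5 at -0.087, INM2 at -0.20, SCS2 at -0.095 and SCS22 at -0.13. With the ACT1 covariate the sign changed for EPT1 at -0.16, DGK1 at -0.24, INM2 at -0.026 and SCS2 at -0.068. Leaving out each array in turn, signs changed within -0.17 to 0.055 for ITR2, -0.15 to 0.14 for DGK1, -0.14 to 0.18 for INO1, -0.35 to 0.022 for INO4, -0.059 to 0.13 for INM2, -0.028 to 0.12 for SCS22, -0.12 to 0.24 for TGL5 and -0.32 to 0.0088 for OPI1. The cause was not tested. The other probe sets gave -2.13, -2.19, -2.12, -1.58, -0.93, -1.37 and -2.60 for FAS1 and -1.49, -0.35, -0.14, -0.43, -1.44 and -0.035 for FAS2, against the sign of the brightest. The labels number the samples 1 to 3 in each group, but deviations of same-numbered samples from their group means correlated at -0.013, -0.093 and 0.16, so the numbers were not taken as pairs; biofilm replicate 1 correlated best with bottom replicate 2, at 0.24. With a replicate block 9 of the 31 were higher and 6 lower, with PCT1 lost and HNM1 gained, and 1590 and 1046 over all genes, in place of 1613 and 1037. Planned counts of a promoter motif were not run, since promoter sequences were not used here. Of the 3 lipid genes left out as dim, INO2 lay below the brightest control on 3 of the 6 arrays, while EKI1 and TGL3 lay above it on all 6.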

Other observations

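The probe sets of FAS1, a subunit of fatty acid synthase, gave opposed values. The brightest was at 4620.5 ± 317 in biofilm cells and 2268 ± 466 in bottom layer cells (mean ± SD, n = 3 each). Of the 7 dimmer ones, all with lower biofilm means, 6 passed in the fit of all probe sets, and the brightest of the 7 had means of 362 and 814 in the same order (log2 fold change -2.60, adjusted p = 0.0534). The dimmest of the 7, which passed, had means of 3.33 and 20.9, within or below the range of the brightest controls. EPT1 has 1 other probe set, which was dim in both groups, with means of 14.6 and 12.2.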
